A study of Mus musculus with 6 samples.

Results

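The histone-modifying enzyme genes were taken as every gene in the deposited expression files whose symbol begins with Hdac, Kdm, Kat or Prmt and a digit, names a sirtuin (Sirt1 to Sirt7), begins with Setd and a digit or b, or is Ezh1, Ezh2, Eed, Suz12, Dot1l, Ep300 or Crebbp. This rule found 64 of 23038 genes and used no measured value. Together they encode families of deacetylases, demethylases, acetyltransferases, arginine methyltransferases, SET-domain methyltransferases and core Polycomb proteins, many of which remove or add marks on histones. Some members are known for other substrates, as given below for Sirt2, Hdac6, Hdac10, Setd3 and Sirt5. The study asked what Qki RNA-binding proteins do in motor neurons and used mOPCs as a nonneuronal comparison, and the mOPC libraries are the ones described here. mOPCs are primary mouse oligodendrocyte precursors, the glial cells that give rise to myelinating oligodendrocytes (OLs), purified by immunopanning from embryos at embryonic day 14.5. The 3 siNC libraries came from mOPCs given control siRNA, and the 3 siQk libraries from mOPCs given siRNAs against Qk, the gene of the Qki proteins, with RNA collected 3 days after transfection. No strain, sex or genotype is given, several Qk siRNAs were used, and which of them each siQk library received is not stated. The labels call the 3 samples of a group biological replicates.

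Histone acetylation loosens nucleosomes at active genes, and deacetylases take it away in complexes with corepressors. Lysine methylation marks active or silent chromatin depending on the residue, and PRC2, built from Ezh1 or Ezh2 with Eed and Suz12, writes the silencing mark of Polycomb target genes. In the oligodendrocyte lineage Hdac1 and Hdac2 are needed for precursors to differentiate, Ezh2 is a known feature of dividing precursors, Prmt5 is needed for precursors to survive and differentiate, and Sirt2, a mostly cytoplasmic deacetylase of tubulin, is an abundant protein of myelin.

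Levels are given as RPKM, the deposited tag number scaled to exon length and library total, and differences as log2 fold changes of siQk over siNC from edgeR's quasi-likelihood test. A gene was called at P below 0.01 with a Benjamini-Hochberg FDR below 0.1 over all 12505 genes tested, those with an average logCPM over 0. Qk stood at 209, 206 and 163 RPKM in the siNC libraries and at 51.3, 76.6 and 36.2 RPKM in the siQk libraries. Its log2 fold change was -1.98 (SE 0.28, edgeR FDR 0.00311), so the targeted transcript was low in every siQk library. Libraries held 58166490 to 141045937 tags, and the tested enzyme genes had at least 206 tags in every library. The TMM factors, which correct for a few abundant transcripts taking a large share of a library, were 0.899 to 0.987 in siNC and 1.04 to 1.07 in siQk. RPKM values carry no such correction and therefore lie higher in siQk than the fold changes do.

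Most enzymes that changed were higher after Qk KD by a small amount, and the most abundant one, Sirt2, fell by far more. Of the 61 enzyme genes tested, 22 were called (36.1%), against 31.0% of all genes tested. Of these, 17 were higher in siQk (27.9%), against 13.8% of all genes tested, and 5 were lower (8.20%), against 17.2%. The other 39 were not called, and 35 of the 61 had an unadjusted edgeR P below 0.05. The share of all genes tested below that P is not given here, so this count cannot be read as particular to the enzymes. The median siNC level was 17.4 RPKM for the enzyme genes tested and 10.3 RPKM for all genes tested. The part of this difference in level in the shares called was not tested. The median log2 fold change was 0.14 over the 61 enzyme genes and 0.01 over all genes tested, with 42 enzyme genes above 0 and 19 below. Among called genes the median size of the change was 0.40 for the enzymes and 0.59 for all genes, and Sirt2 was the 1 called enzyme past 1 on the log2 scale. RPKM ranges of siNC and siQk stood apart for 44 enzyme genes (72.1%, against 58.3% of all genes tested), 40 of them higher in siQk. With RPKM divided by the TMM factors this count was 38 (62.3%, against 54.4%), and it included all 22 called genes.

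The split between higher and lower depended on the scaling. With library size as the only scaling the median of all genes tested moved to 0.16, and 26 enzyme genes were called higher and 1 lower. With upper quartile factors, 22 were called higher and 1 lower. Sirt2 was the called enzyme that was lower under each of these settings, and the other 4 kept their sign without passing the cutoffs under library size alone. Leaving out 1 library also moved the count: 13 enzyme genes were called without siNC replicate 1, 11 without siQk replicate 1, 10 without siQk replicate 2 and 12 without siQk replicate 3. The share of all genes called then fell as well, to between 19.8% and 25.4%. Hdac2, Hdac10, Kat2a, Kdm1b, Kdm2b, Kdm4a, Prmt5, Setd1a, Sirt2 and Sirt6 were called under each of the 15 alternatives that kept the same cutoffs. The other 12 called genes were called under 3 (Hdac6) to 11 (Prmt1) of them.

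**Figure D1:**
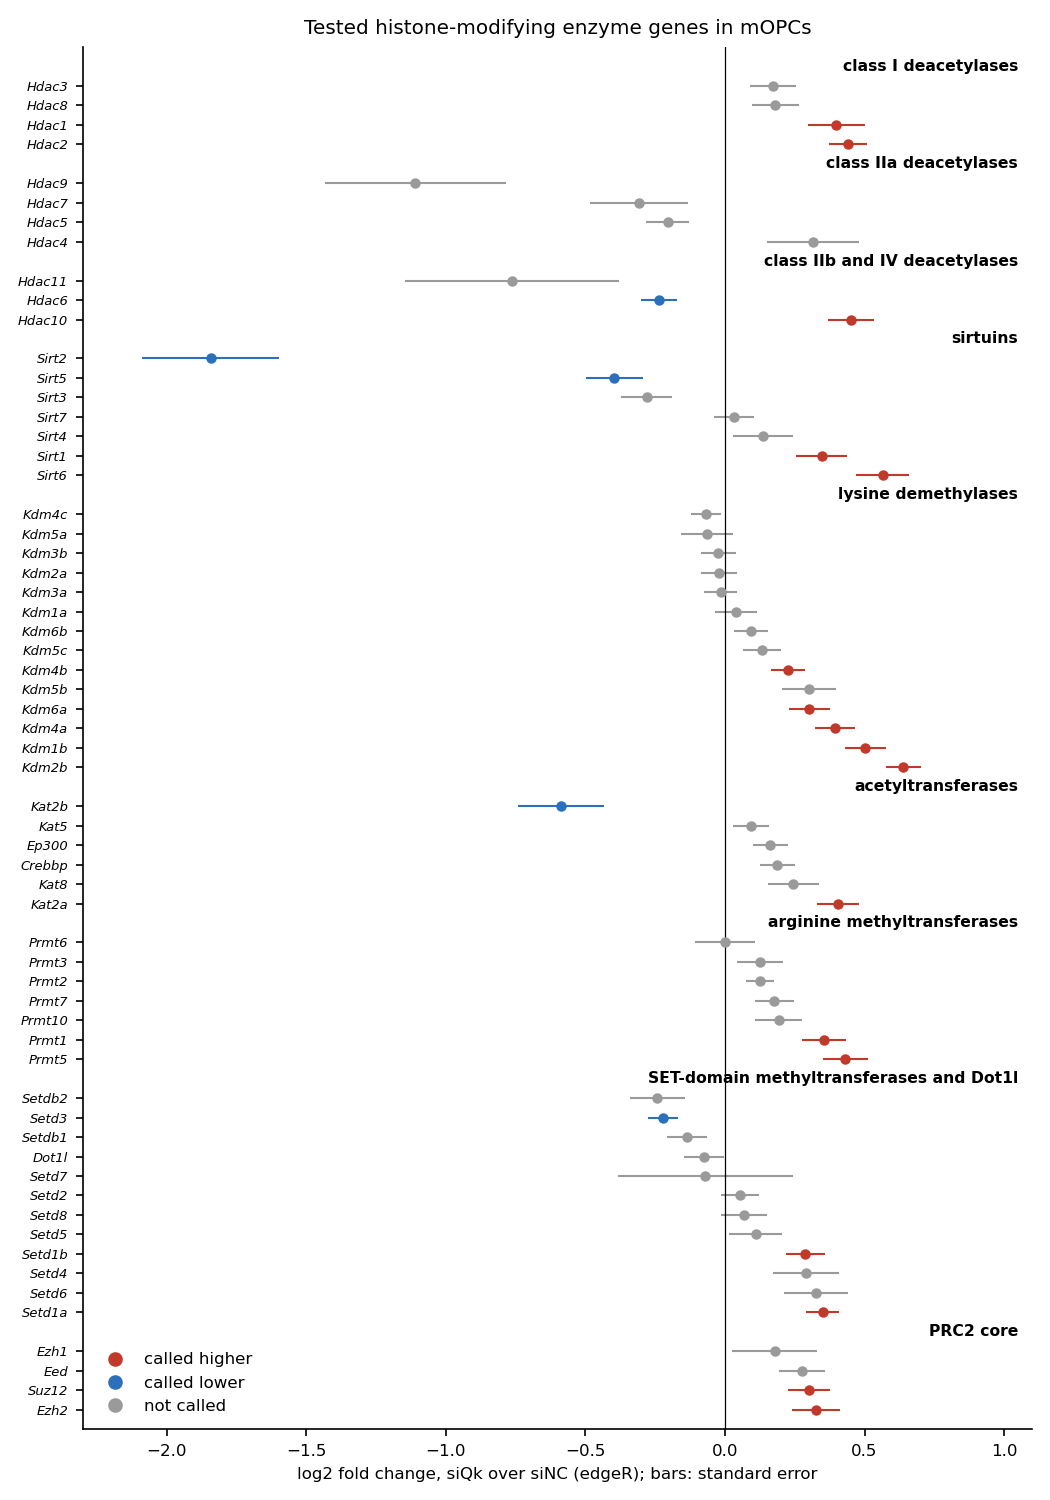
Log2 fold change of siQk over siNC for each tested enzyme gene, grouped by family, with bars for the standard error of the edgeR fit and colour for the call. Sirt2 lies at -1.84, and the 17 genes called higher lie between 0.23 and 0.64.

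The remaining 3 genes had too few tags to be tested. Kdm4d, a demethylase known from testis, stood at 0.07 to 0.26 RPKM, Prmt8, a brain arginine methyltransferase, at 0.03 to 0.18 RPKM, and the Y-linked Kdm5d at 0 in all 6 libraries.

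Class I deacetylases, of which Hdac1 and Hdac2 are the nuclear core of the Sin3, NuRD and CoREST corepressor complexes, were higher as far as they changed. Hdac2, the most abundant of them, stood at 76.7, 77.3 and 85.7 RPKM in siNC and at 126, 118 and 116 RPKM in siQk. The groups did not overlap, and the log2 fold change was 0.44 (SE 0.07, edgeR FDR 0.00446). Its partner Hdac1 stood at 20.3, 18.4 and 24.4 RPKM in siNC and at 29.7, 32.3 and 30.2 RPKM in siQk, also without overlap, and rose by 0.40 (SE 0.10, edgeR FDR 0.0226). The ratio of Hdac1 to Hdac2 overlapped between the groups, with log2 means of -1.93 and -1.97. Hdac3, the catalytic subunit of the NCoR and SMRT complexes, stood at 59.5, 53.7 and 54.5 RPKM against 71.8, 69.7 and 68.7 RPKM. Its RPKM ranges were apart but overlapped once scaled, and its log2 fold change of 0.17 was not called (edgeR FDR 0.144). Hdac8 was not called either, at 0.18. The summed class I level was 165 ± 8.38 RPKM in siNC and 232 ± 6.63 RPKM in siQk (SD, n = 3). The ratio of siQk to siNC was 1.40, and 1.26 after division by the TMM factors.

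Class IIa deacetylases bind MEF2 factors and shuttle between nucleus and cytoplasm. Here 0 of 4 were called by edgeR, against 31.0% of all genes tested, and 2 of these 4, Hdac5 and Hdac9, had an unadjusted P below 0.05. DESeq2 called 1 of them, Hdac9. Hdac5, the most abundant, stood at 29.4, 29.3 and 27.6 RPKM in siNC and at 28.2, 26.6 and 28.4 RPKM in siQk. These ranges overlapped, and the log2 fold change was -0.21 (edgeR FDR 0.0713). Hdac9 was singled out after its values were seen, since its log2 fold change of -1.11 (SE 0.33) was the lowest after that of Sirt2. It stood at 1.62, 3.27 and 2.21 RPKM in siNC and at 1.5, 0.751 and 1.37 RPKM in siQk. Its ranges were apart by a narrow margin, its P of 0.0117 in the edgeR fit missed the cutoff of 0.01 (FDR 0.036), and it was called under 5 of 15 alternatives.

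The class IIb pair moved in opposite directions. Hdac10, a deacetylase of polyamines, stood at 6.0, 6.90 and 6.43 RPKM in siNC and at 10.1, 10.1 and 9.11 RPKM in siQk. It rose by 0.45 (SE 0.08, edgeR FDR 0.00741) with no overlap. Hdac6, the cytoplasmic deacetylase of tubulin, stood at 15.3, 18.1 and 16.4 RPKM in siNC and at 15.7, 16.0 and 15.1 RPKM in siQk. These unscaled ranges overlapped and the scaled ones did not, and Hdac6 was called lower at -0.24 (SE 0.07, edgeR FDR 0.0296) in the fit as reported and in 3 of 15 alternatives. Hdac11, the class IV enzyme, is known from work on myelin gene expression in oligodendroglial cells. It varied more between the siNC libraries than between the groups, at 23.9, 34.4 and 11.9 RPKM against 16.0, 11.5 and 18.5 RPKM. The estimate of -0.76 (SE 0.38) was not called (edgeR FDR 0.157), and it was called at -1.09 once siNC replicate 3, the lowest siNC library, was left out.

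Sirtuins, the NAD-dependent deacylases, were dominated by 1 transcript. Sirt2 (Entrez 64383, chr7:28766752-28788665 in GRCm38.p6) stood at 2726, 1835 and 1682 RPKM in siNC and at 603, 573 and 775 RPKM in siQk. Every siQk library lay far under the lowest siNC library, and the level was 3.58-fold lower (log2 fold change -1.84, SE 0.25, edgeR FDR 0.00278). By mean RPKM Sirt2 had rank 5 among all 23038 genes in siNC and rank 29 in siQk. It made up 61.6% of the summed RPKM of the 64 enzyme genes in siNC and 28.7% in siQk, and its level was 13.2-fold that of the next enzyme gene, Prmt1, in siNC and 2.92-fold in siQk. Of all genes tested, 1.07% had a log2 fold change as low or lower. The siQk library with the least Qk, replicate 3, was the one with the most Sirt2. Of the 2254 exon bases of Sirt2, 42 overlap Nfkbib on the opposite strand.

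The other sirtuins lay between 5.04 and 18.9 RPKM in the group means. Sirt6, a nuclear deacetylase of histone H3 at telomeres and glycolytic genes, stood at 5.09, 5.6 and 6.26 RPKM in siNC and at 8.72, 10.2 and 8.90 RPKM in siQk. It rose by 0.57 (SE 0.09, edgeR FDR 0.00571) without overlap, the second largest rise among the 61 tested genes of the rule. Sirt1, a nuclear deacetylase of histones and p53, stood at 6.67, 8.49 and 8.91 RPKM against 11.7, 11 and 11.2 RPKM and rose by 0.35 (SE 0.09, edgeR FDR 0.0255). Sirt5, the mitochondrial desuccinylase, stood at 5.62, 5.81 and 6.53 RPKM in siNC and at 5.10, 4.74 and 5.29 RPKM in siQk. The ranges were close but apart, and Sirt5 fell by 0.40 on the log2 scale (SE 0.10, edgeR FDR 0.024). Sirt3, Sirt4 and Sirt7 were not called. The median log2 fold change over the 7 sirtuins was 0.03, while their summed RPKM went from 2133 ± 560 to 711 ± 108 (SD, n = 3). Without Sirt2 the unscaled sum went the other way, from 52.2 ± 3.53 to 60.6 ± 1.34 RPKM. Part of this rise comes from the missing TMM correction, and a scaled sum is not given here. The median log2 fold change of these 6 genes, which carries the correction, was 0.08.

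**Figure D2:**
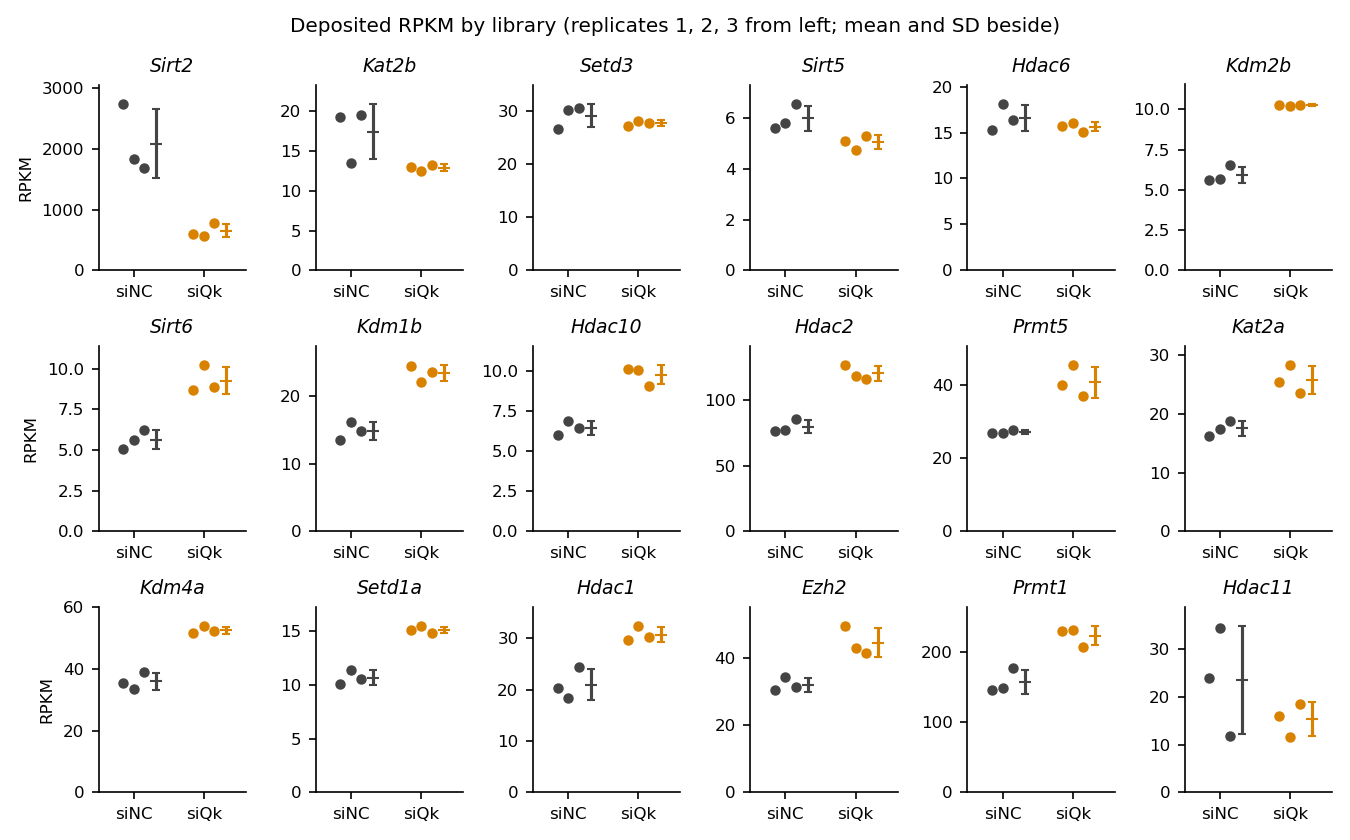
RPKM of 18 enzyme genes in each library, with replicates 1 to 3 from left to right and the mean and SD over 3 libraries beside them, each panel on its own axis from 0. Sirt2 is at 1682 RPKM or more in siNC and at 775 RPKM or less in siQk, while Hdac11 overlaps between the groups.

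Of the 14 lysine demethylases tested, 5 were called, each higher in siQk. Of all genes tested, 31.0% were called and 13.8% were called higher. Kdm2b, which recruits a variant of the other Polycomb complex, PRC1, to CpG islands, gave the smallest P of any enzyme gene. It stood at 5.58, 5.69 and 6.52 RPKM in siNC and at 10.3, 10.2 and 10.3 RPKM in siQk. Without overlap, it rose by 0.64 (SE 0.06, edgeR FDR 0.00105). Kdm1b, a flavin-dependent demethylase, stood at 13.5, 16.2 and 14.9 RPKM against 24.4, 22.1 and 23.5 RPKM and rose by 0.50 (SE 0.07, edgeR FDR 0.00366). Exons of both genes overlap a gene on the opposite strand in GENCODE M21, 627 of 6038 exon bases with Rnf34 for Kdm2b and 498 of 5080 with Dek for Kdm1b. The library kit does not mark strand, so tags from these stretches cannot be told apart.

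Kdm4a, a Jumonji demethylase, stood at 35.6, 33.5 and 39.0 RPKM in siNC and at 51.7, 53.8 and 52.4 RPKM in siQk. All siQk libraries were above all siNC libraries, and Kdm4a rose by 0.39 (SE 0.07, edgeR FDR 0.00703). Its relative Kdm4b rose by 0.23 (SE 0.06, edgeR FDR 0.0285), from 20.2 ± 0.998 to 26.3 ± 0.277 RPKM. Kdm6a, which removes the Polycomb mark, stood at 17.9, 22.5 and 20.5 RPKM against 27.2, 28.1 and 28.0 RPKM. It rose by 0.30 (SE 0.07, edgeR FDR 0.02). The most abundant demethylase, Kdm1a (LSD1), which acts with CoREST, stood at 80.8, 91.5 and 101 RPKM against 108, 106 and 96.7 RPKM. The groups overlapped, and its log2 fold change of 0.04 was not called. The 9 demethylases not called spanned -0.07 to 0.30, with Kdm5b at the upper end (edgeR P 0.0164).

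Among the 6 acetyltransferases the related coactivators Kat2a (GCN5) and Kat2b (PCAF) moved apart. These are alternative catalytic subunits of the SAGA-type and ATAC complexes. Kat2a (Entrez 14534, chr11:100704746-100712485) stood at 16.3, 17.5 and 18.8 RPKM in siNC and at 25.5, 28.3 and 23.5 RPKM in siQk, and rose by 0.40 (SE 0.07, edgeR FDR 0.00752). Kat2b (Entrez 18519, chr17:53566774-53672721) stood at 19.3, 13.5 and 19.6 RPKM in siNC and at 13.0, 12.5 and 13.3 RPKM in siQk. Its siNC replicate 2 lay only just above the siQk libraries, and the log2 fold change was -0.59 (SE 0.15, edgeR FDR 0.025). It was called in 8 of 15 alternatives, and GENCODE M21 lists a processed pseudogene, Kat2b-ps, whose reads may have been counted with it. Kat5 (Tip60), the most abundant acetyltransferase, was not called at 0.09, with 20.7, 23.9 and 25.5 RPKM against 28.0, 27.1 and 27.6 RPKM. Of its 2361 exon bases, 426 overlap Rnaseh2c on the opposite strand, and tags from this stretch cannot be told apart. Ep300 and Crebbp, the paired general coactivators, were not called at 0.16 and 0.19.

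Of the 7 arginine methyltransferases tested, 2 were called, both higher in siQk, beside 31.0% of all genes tested called and 13.8% called higher. Prmt1, which places most asymmetric arginine dimethylation, stood at 146, 149 and 177 RPKM in siNC and at 229.8, 231 and 207 RPKM in siQk. It rose by 0.35 (SE 0.08, edgeR FDR 0.0149) with no overlap. Prmt5, the main symmetric enzyme, stood at 27.0, 26.9 and 27.9 RPKM against 40.1, 45.5 and 37.0 RPKM and rose by 0.43 (SE 0.08, edgeR FDR 0.008). The siNC libraries of Prmt5 differed from each other by about 1 RPKM, and each siQk library lay above them. The other 5 tested members, with log2 fold changes of 0.00 to 0.19, were not called.

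Of the 12 SET-domain methyltransferases and Dot1l, 2 were called higher and 1 lower, against 13.8% and 17.2% of all genes tested. The catalytic subunits of the SET1 COMPASS complexes, writers of the mark at active promoters, were the higher ones. Setd1a stood at 10.1, 11.4 and 10.6 RPKM in siNC and at 15.1, 15.4 and 14.8 RPKM in siQk, and rose by 0.35 (SE 0.06, edgeR FDR 0.00597). Setd1b stood at 4.37, 4.82 and 5.23 RPKM against 6.08, 6.92 and 6.51 RPKM and rose by 0.29 (SE 0.07, edgeR FDR 0.0198). Neither gene overlapped between the groups. Setd3, the most abundant of this family and a methyltransferase of actin histidine, stood at 26.6, 30.1 and 30.4 RPKM against 27.1, 28.1 and 27.8 RPKM. These ranges overlapped until scaled, and Setd3 was called lower at -0.22 (SE 0.05, edgeR FDR 0.0187) in the fit as reported and in 6 of 15 alternatives. The 9 others, Dot1l among them, were not called, and Setd7 was singled out after its values were seen. It stood at 13.1, 21.1 and 19.6 RPKM in siNC and at 23.4, 10.5 and 22.4 RPKM in siQk, where replicate 2 was far below the other siQk libraries.

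PRC2 core genes were higher as far as they changed. Ezh2 (Entrez 14056), the methyltransferase of the complex in dividing cells, stood at 30.3, 34.3 and 31.2 RPKM in siNC and at 49.3, 42.9 and 41.3 RPKM in siQk. It rose by 0.33 (SE 0.09, edgeR FDR 0.026) without overlap. Suz12 (Entrez 52615), its structural partner, stood at 23.4, 29.1 and 27.5 RPKM against 38.2, 36.3 and 34.6 RPKM and rose by 0.30 (SE 0.08, edgeR FDR 0.0219). Eed, which reads the mark, was not called at 0.28 (edgeR P 0.0125). Ezh1, the form of non-dividing cells, stood at 2.14, 2.62 and 3.44 RPKM against 3.55, 3.65 and 3.06 RPKM. Its groups overlapped and its log2 fold change of 0.18 was not called, and the Ezh1 to Ezh2 ratio overlapped as well, at log2 means of -3.57 and -3.70.

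The promoters of Ezh2 and Suz12 are shown because both genes were called higher and hold an E2F-type sequence, and they were picked after the matches were seen. The search covered TTTCCCGC, TTTGGCGC and TTTCGCGC on both strands, in windows from 250 bases before to 50 after the start (RefSeq, GRCm38.p6). Of 32851 promoter windows 1.84% held a match, as did 4.16% of 9975 tested genes. Windows were found for 55 of the 64 enzyme genes, and a match was present in 2 of 13 called higher, 0 of 5 called lower and 1 of 34 not called, which was Sirt4. The Eed window held none. Other motifs were searched as well. CCAAT was present in 6 of 13 called higher, 5 of 5 lower and 17 of 34 not called, against 43.6% of tested genes. In the same order GGGCGG was present in 8, 4 and 21 (70.3% of tested genes). CACGTG was present in 3, 0 and 4 (11.8%) and TATAAA in 0, 0 and 3 (8.17%). Capitals mark the E2F-type match, and a match describes the letters and shows no binding. The Ezh2 window is chr6:47594981-47595280 on the minus strand and the Suz12 window chr11:79992856-79993155 on the plus strand.
Ezh2 promoter: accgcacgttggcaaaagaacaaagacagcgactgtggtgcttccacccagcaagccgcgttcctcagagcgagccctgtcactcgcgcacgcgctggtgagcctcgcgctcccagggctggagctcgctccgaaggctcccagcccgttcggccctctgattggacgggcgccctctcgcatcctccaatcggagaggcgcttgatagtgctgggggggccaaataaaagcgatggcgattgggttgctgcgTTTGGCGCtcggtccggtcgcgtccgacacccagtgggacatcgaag
Suz12 promoter: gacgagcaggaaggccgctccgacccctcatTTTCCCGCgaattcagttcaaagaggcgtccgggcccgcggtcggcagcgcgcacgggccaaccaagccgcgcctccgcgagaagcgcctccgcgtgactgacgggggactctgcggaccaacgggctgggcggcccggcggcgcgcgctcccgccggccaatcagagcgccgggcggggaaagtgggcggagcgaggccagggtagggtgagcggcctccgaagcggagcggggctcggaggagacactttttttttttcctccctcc

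Qki proteins bind RNA at a core written in DNA letters as ACTAAC or ACTAAT, so the longest 3'UTR of each gene in GENCODE M21 was searched for both on the sense strand, where it had at least 50 bases. Of 11825 tested genes, 36.1% held a match, with 27.2% of those called higher and 52.9% of those called lower. Of the 61 tested enzyme genes, 16 held a match (26.2%). These were 1 of 17 called higher, 2 of 5 called lower and 13 of 39 not called. Kat2b held 4 matches and Sirt2 held 1, and the Sirt2 match was formed by the last bases of its 589-base 3'UTR. These sites are shown with up to 12 bases on each side and the match in capitals, since they are the ones in genes called lower. They lie on GRCm38 at chr17:53671901-53671906, chr17:53672030-53672035, chr17:53672077-53672082 and chr17:53672182-53672187 for Kat2b and at chr7:28788656-28788661 for Sirt2, all on the plus strand. Whether Qki binds any of them was not tested.
Kat2b site 1: gggttatatcccACTAACattcgctgtaca
Kat2b site 2: tgggaaaaaccaACTAATatacaaccatat
Kat2b site 3: aatggtctcgacACTAATttttatgatgca
Kat2b site 4: ttatattgggtcACTAATagtcattaaaaa
Sirt2 site: caaaacaaagcaACTAAC

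Balances between related enzymes compare genes within a library and so do not depend on its scaling. Of 18 pairs compared, 11 had log2 ratios whose siNC and siQk ranges did not overlap (61.1%). For comparison, the ranges of single genes stood apart for 54.4% of all genes tested in scaled RPKM and 58.3% in RPKM, so this share lies near that background. An exact two-sided permutation test of 3 against 3 libraries cannot go below p = 0.1, which these 11 pairs reached (0.164 adjusted over the 18). The log2 ratio of Kat2a to Kat2b went from 0.03 ± 0.32 to 0.99 ± 0.18 (SD, n = 3). That of Hdac6 to Hdac10 went from 1.36 ± 0.02 to 0.68 ± 0.05, and that of Sirt1 to Sirt2 from -8.00 ± 0.59 to -5.83 ± 0.24. In these 3 pairs both genes were called, in opposite directions.

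In 5 other pairs 1 of the genes was called. The log2 ratio of Kdm2a to Kdm2b went from 1.54 ± 0.14 to 0.88 ± 0.05, that of Kdm1a to Kdm1b from 2.61 ± 0.13 to 2.15 ± 0.11, and that of Kdm4a to Kdm4c from 0.95 ± 0.08 to 1.41 ± 0.04. In the Kdm6a to Kdm6b pair the mean moved by 0.21 and in the Sirt6 to Sirt7 pair by 0.53. The ratios of Hdac4 to Hdac5, Hdac7 to Hdac9 and Kdm5a to Kdm5b also stood apart, with no called gene in them. Ratios overlapped for Hdac1 and Hdac2, Ezh1 and Ezh2, Ep300 and Crebbp, Prmt2 and Prmt3, Kdm3a and Kdm3b, Setd1a and Setd1b, and Setdb1 and Setdb2.

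**Figure D3:**
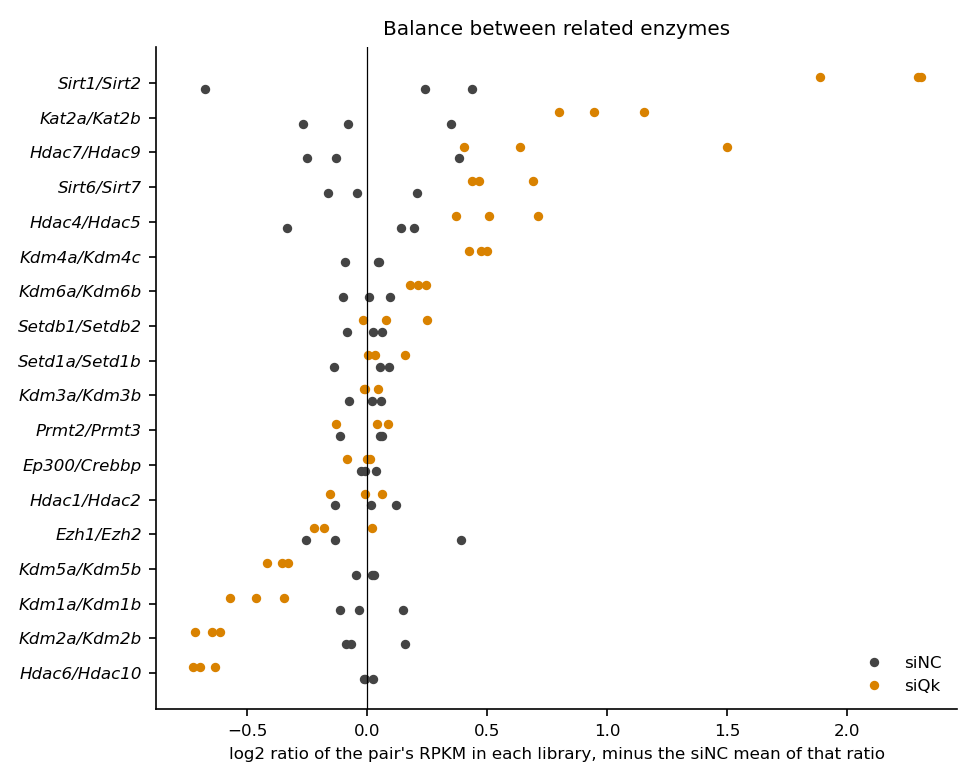
Log2 ratio of RPKM within each of 18 pairs of related enzymes, one point per library, set to the siNC mean of that pair. The siQk points of Kat2a to Kat2b and Sirt1 to Sirt2 lie to the right of all siNC points and those of Hdac6 to Hdac10 to the left.

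Summed RPKM stood apart between the groups in 7 of 9 families, each at the smallest exact permutation p of 0.1 (0.129 adjusted over the 9), and in 6 of 9 after division by the TMM factors. These are 77.8% and 66.7% of a small number of families, against 58.3% and 54.4% of all single genes tested. A sum over several genes is unlike a single gene, so the single-gene shares are not a matched background. The demethylase sum was 368 ± 28.2 RPKM in siNC and 452 ± 9.50 RPKM in siQk (SD, n = 3). The acetyltransferase sum was 99.7 ± 7.29 against 119 ± 3.60 RPKM. For arginine methyltransferases the sums were 253 ± 21.2 and 347 ± 18.8 RPKM, and for PRC2 core genes 86.3 ± 8.04 and 118 ± 8.06 RPKM. Scaling lowered the ratio of siQk to siNC from 1.23 to 1.11 for demethylases and from 1.19 to 1.08 for acetyltransferases. It lowered the ratio from 1.37 to 1.23 for arginine methyltransferases and from 1.36 to 1.23 for PRC2 core genes. The SET-domain sum of 175 ± 13.3 against 195 ± 0.375 RPKM overlapped once scaled, with a scaled ratio of 1.003. Class IIa sums overlapped, with a ratio of 1.03 that turned to 0.927 when scaled, and class IIb and IV sums overlapped too. All 64 enzyme genes summed to 3376 ± 489 RPKM in siNC and 2264 ± 71.9 RPKM in siQk, and without Sirt2 to 1295 ± 76.0 and 1614 ± 37.2 RPKM. These totals are in unscaled RPKM, which lies higher in siQk.

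Of 65 tested partners of these enzymes, 24 were called (36.9%, against 31.0% of all genes tested), 20 higher (30.8%, against 13.8%) and 4 lower (6.15%, against 17.2%). Of 9 tested COMPASS partners, subunits of the SET1 complexes and of the related MLL complexes, 4 were higher and 0 lower. Wdr5, the scaffold of the core, rose by 0.45 (edgeR FDR 0.00465), Cxxc1, the CpG-binding subunit, by 0.33 and Men1 (menin), a subunit of MLL complexes, by 0.29. Of 27 acetyltransferase complex partners 7 were higher and 0 lower, led by Epc2 of the Tip60 complex at 0.44, Msl3 of the Kat8 complex at 0.40 and Kansl1, also of a Kat8 complex, at 0.36. Of 21 deacetylase corepressor partners 5 were higher and 2 lower. Rcor1 (CoREST) rose by 0.50, Tbl1x of the NCoR complex by 0.45 and Gatad2b of NuRD by 0.33, while Mbd2, the methyl-CpG reader of NuRD, fell by 0.72 on the log2 scale and Rcor3 by 0.34.

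Of 5 tested PRC2 accessory subunits, which steer the core to its sites, 2 were higher and 1 lower (13.8% and 17.2% of all genes tested). Jarid2 and Aebp2 were not called, at 0.09 and -0.03. Phf1 and Phf19 gave the largest changes among the partners, both at low levels. Phf1 rose by 1.43 (SE 0.29, edgeR FDR 0.011) from 0.409 ± 0.108 to 1.22 ± 0.300 RPKM, and Mtf2 rose by 0.62 (edgeR FDR 0.00492) from 7.66 ± 1.20 to 13.1 ± 0.836 RPKM (SD, n = 3). Their relative Phf19 fell by 1.01 on the log2 scale (SE 0.13, edgeR FDR 0.00246), from 3.08 ± 0.217 to 1.70 ± 0.205 RPKM. All 3 are Polycomb-like proteins. Of the 3 tested partners of Prmt5, its methylosome subunit Wdr77 rose by 0.30 and the adaptor Riok1 by 0.39, while the adaptor Clns1a (pICln) fell by 0.30 on the log2 scale.

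Of 28 tested writers and erasers whose symbols fall outside the rule, 6 were called (21.4%, against 31.0% of all genes tested), each higher in siQk. Of 21 tested methyltransferases and acetyltransferases, 5 were higher and 0 lower, with Smyd5 at 0.74, Suv39h1 of heterochromatin at 0.60 and Suv420h2 at 0.44. Of 7 demethylases, 1 was called, Jmjd1c, which rose by 0.89 (SE 0.10, edgeR FDR 0.00137) from 20.9 ± 3.27 to 42.7 ± 2.33 RPKM. Kat7, Kat6a, Kat6b and Kdm7a stand in the files under the older symbols Myst2, Myst3, Myst4 and Jhdm1d, so the rule did not take them. Of these 4, 0 were called by edgeR or by DESeq2, 3 had an unadjusted edgeR P below 0.05, and the log2 fold changes ran from -0.27 to 0.22.

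The cultures also differed in their markers, and in bulk RNA fewer cells of a type cannot be told apart from less RNA per cell. OPC markers were present in every library, at uneven levels. Olig2, Sox10 and Pdgfra stood at 82.0 RPKM or more in the group means, and Cspg4 at 2.17 (siNC) and 4.58 RPKM (siQk). Of 10 tested, 3 were higher (Cspg4, Olig1 and Olig2) and 1 was lower (Lhfpl3, at -1.07). Of all genes tested, 13.8% were called higher and 17.2% lower. The OPC marker sum was 1045 to 1115 RPKM in siNC and 1243 to 1401 RPKM in siQk. Of 10 mature OL genes 8 were lower and 0 higher in siQk, and their summed level was 3514 to 6126 RPKM in siNC and 1515 to 2278 RPKM in siQk. Sirt2 and this sum were both lowest in siQk replicate 2 and highest in siNC replicate 1. Of 20 cell cycle genes 14 were higher and 0 lower, and their sum was 144 to 165 RPKM in siNC and 237 to 399 RPKM in siQk. Ezh2, Suz12 and Hdac2 and this sum were each highest in siQk replicate 1 and, among the siQk libraries, lowest in replicate 3, and these 3 genes were picked after their values were seen. Kat2a, Prmt5 and Sirt6 were highest in siQk replicate 2 instead. The part of the marker genes in the enzyme values was not tested.

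**Figure D4:**
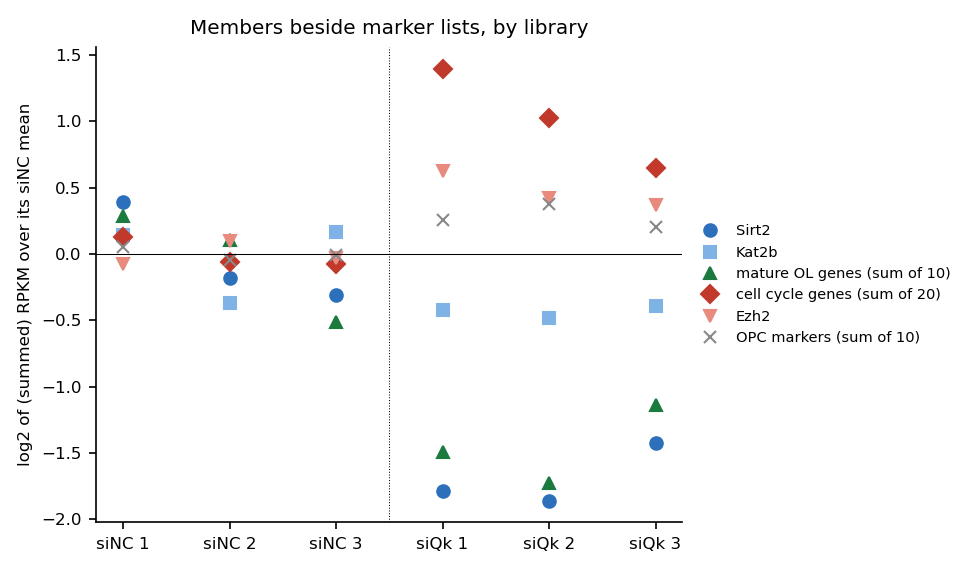
Log2 of RPKM over the siNC mean in each library for Sirt2, Kat2b and Ezh2 beside the summed levels of mature OL genes, cell cycle genes and OPC markers. Sirt2 and the mature OL genes lie below 0 in each siQk library, and Ezh2 and the cell cycle genes above 0.

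Markers of other cell types were counted as well, beside the 13.8% of all genes tested called higher and the 17.2% called lower. Of 9 tested astrocyte markers 1 was higher and 4 were lower, with sums of 299 to 419 RPKM in siNC and 297 to 321 RPKM in siQk. Gfap, the astrocyte filament gene, had group means of 69.1 (siNC) and 9.85 RPKM (siQk), a log2 fold change of -2.95, and Aldh1l1 of 7.02 and 1.69 RPKM, a log2 fold change of -2.21, both lower by more than Sirt2. The glutamate transporter genes Slc1a3 and Slc1a2 fell by 1.38 and 1.06 on the log2 scale, while S100b and Aldoc, which make up most of the sums, were not called. Of 9 tested neuron markers 2 were higher and 0 lower, with sums of 153 to 229 RPKM and 139 to 181 RPKM. Their median log2 fold change was 0.61, with 6 of the 9 above 0. Snap25 stood at 0.641, 0.886 and 0.725 RPKM in siNC and at 4.63, 3.35 and 7.57 RPKM in siQk. The abundant Tubb3 was not called, with group means of 123 (siNC) and 91.9 RPKM (siQk). Stmn2 and Slc17a6 were at or below 0.1 RPKM in every library. Of 10 microglia markers 7 were at or below 0.1 RPKM in every library, with sums of 2.75 to 5.82 and 1.39 to 2.09 RPKM, and of 10 fibroblast and vascular markers 7 were, with sums of 2.42 to 4.96 and 3.58 to 4.79 RPKM. Of the 2 microglia markers tested, P2ry12 was called lower. The microglia markers Cx3cr1 and Tmem119 and the endothelial marker Cdh5 were under 0.1 RPKM in every library.

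**Figure D5:**
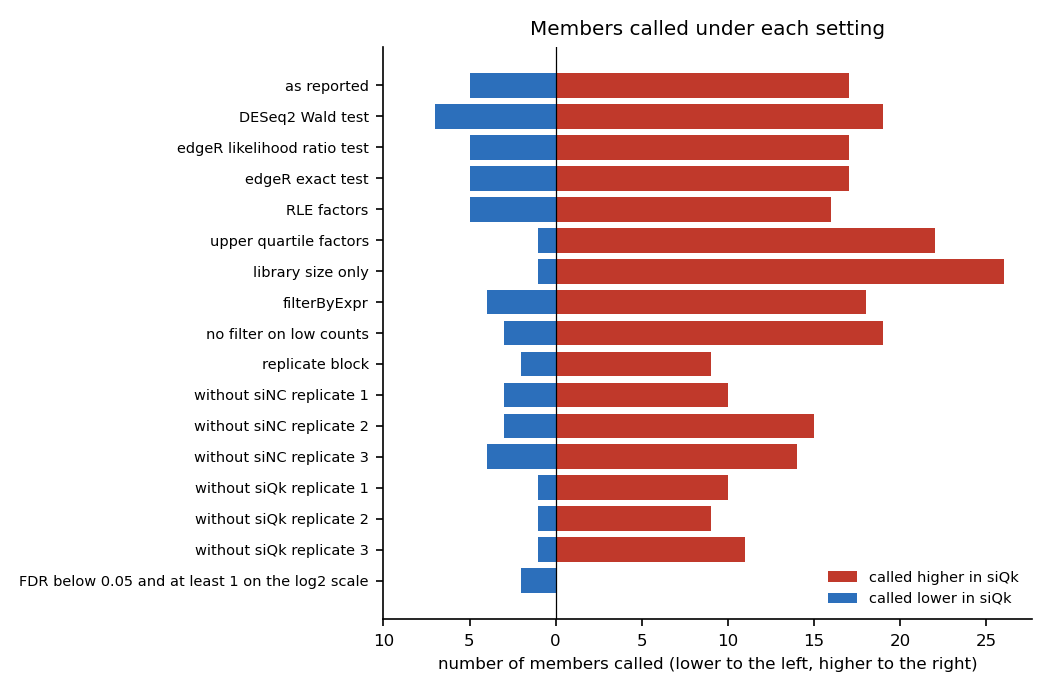
Number of the 61 tested enzyme genes called higher (right) and lower (left) in siQk under the fit as reported and each alternative. The fit as reported gives 17 and 5 and library size alone 26 and 1.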

How the data were processed

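Polyadenylated RNA of 3 siNC and 3 siQk mOPC libraries was sequenced as paired ends. The authors used OLego for alignment (mm10) and Quantas for gene levels, and versions and gene annotation are not given in the sources used here. Per gene the authors deposited an unnormalized estimated count of tags, the exon length, and an RPKM that equals the value recomputed from both and the library total. Estimated counts, some with decimals, were rounded. Genes with an average logCPM over 0 were tested with edgeR 4.0.16 (R 4.3.3) after TMM, with group as the only term. Benjamini-Hochberg adjustment ran over all genes tested. The SE is the size of the log2 fold change over the root of its F statistic. Replicates differed by more than sampling noise (chi-square per degree of freedom of 36.3 or more). Coordinates and promoters come from RefSeq and 3'UTRs from GENCODE M21.

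The enzyme genes and lists were chosen with earlier results of these data known. Named were Qk, in each family up to 4 called genes with the highest and up to 4 with the lowest log2 fold change, the most abundant gene of each family, the enzymes known from oligodendrocytes, pairs called oppositely, untested genes, and up to 3 called partners per direction and list. Other genes, such as Hdac9 and Setd7, were named after their values were seen. Alternatives were DESeq2 1.42.0, other edgeR tests, scalings, filters, a replicate block, a stricter cutoff and each library left out. Whether replicate numbers pair libraries is not stated. Correlations of same-numbered deviations from the group means were -0.05, -0.14 and -0.33. Differently numbered libraries were not compared, so these values cannot settle the pairing. Motif sites are printed only for genes called lower, and the site of 1 other called gene is not reported here.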

Additional observations from a re-analysis of the deposited data

How the results depend on the processing

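Under the 16 alternatives, 840 of 976 values of single enzyme genes stayed on the same side of the cutoffs with the same sign, 104 lost their call, 32 gained one and 0 called values changed sign. With the replicate number as a block, 11 enzyme genes were called (9 higher, 2 lower) and 18 genes of the 7 partner and outside lists (30 as reported, 16 higher and 2 lower under the block). The share of all genes called under the block was 22.4%, against 31.0% as reported. Whether same-numbered libraries were paired is not settled, and the reason for that loss was not tested. With library size as the only scaling, 26 enzyme genes were higher and 1 lower, and 46 list genes were called (44 higher, 2 lower). Upper quartile factors left 1 lower and no filter on low counts left 3 lower. At an FDR below 0.05 with at least 1 on the log2 scale, 2 enzyme genes were called, Hdac9 and Sirt2 (0 higher, 2 lower), and 2 list genes (1 higher, 1 lower). Leaving out 1 library gave 10 to 18 enzyme genes (9 to 15 higher, 1 to 4 lower) and 16 to 33 list genes (13 to 28 higher, 3 to 5 lower). List calls were 17 without siQk replicate 1 and 16 without siQk replicate 2. Fewer libraries also leave fewer degrees of freedom. Qk was called under each alternative, with log2 fold changes of -2.29 to -1.76. Pairs with ranges apart numbered 10 to 12 and family sums 6 to 8. The 3 untested genes had at most 92 tags in any library, and with 3 libraries per group no exact test of a single value can go below 0.1.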
